A study of Mus musculus with 12 samples.

Results

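The transcripts of the proteasome, the protease that removes ubiquitin-tagged proteins, were followed in whole liver RNA of 12 female mice aged 3 to 4 months. The members are the genes named Psma, Psmb, Psmc, Psmd, Psme, Psmf or Psmg with a number in both deposited tables. There were 48 such genes among the 41743 listed, and 47 of them reached at least 1 TPM (each transcript's share of all transcripts, corrected for gene length) in at least 3 of the 12 livers. Psma8, a testis form of an alpha subunit, was just inside this limit, with at least 1 TPM in 3 livers and between 0.0572 and 1.495 TPM over all 12. Psmb11, the catalytic subunit of the thymus proteasome, was the gene left out and was listed at 0 in every liver. The other 46 genes were above 10 TPM in all 12 livers and were tested in each comparison of 2 groups.

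The livers fell into 4 groups of 3 mice. YAP1 KO mice carried Foxa3-Cre, which is active in the foregut endoderm, with floxed Yap1 on both alleles and a ROSA-stop fl/fl-EYFP reporter, on the C57BL/6 background, and were set against WT (C57BL/6) littermates. YKTH mice (YAP1 KO TAZ heterozygotes) carried the same Cre with floxed Yap1 and 1 lost copy of Wwtr1, the gene of TAZ, on a mixed C57BL/6-FVB background, and were set against WT (mixed) littermates. Hepatocytes and bile duct cells derive from that endoderm, and the level of Yap1 in each cell type was not measured here. Yap1 itself was at 3.72, 1.93 and 1.67 TPM in the YAP1 KO livers, at 8.63, 9.20 and 11.5 TPM in the YKTH livers and between 28.2 and 33.2 TPM in the 6 WT livers. Wwtr1 was at 16.7, 13.3 and 13.7 TPM in YAP1 KO against 6.83, 6.26 and 6.28 TPM, and at 14.1, 11.8 and 11.5 TPM in YKTH against 8.38, 8.23 and 7.73 TPM, so its level in the livers labelled YKTH was not below that of their WT littermates. After the scaling described below, its log2 fold change was 0.73 in YAP1 KO (limma adjusted p = 0.00186) and 0.26 in YKTH livers (adjusted p = 0.0743). The difference between the models was 0.46 ± 0.14 SE (adjusted p = 0.802), and the part of the lost copy in it was not tested. In whole liver RNA, fewer cells of a type and less RNA per cell cannot be told apart.

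The 20S core particle is a barrel of outer alpha rings, which gate the entry, and inner beta rings, in which a few beta subunits cut peptide bonds. The 19S regulatory particle sits on the ends of the barrel, binds and deubiquitinates substrates through its lid and base, and unfolds them with a ring of ATPases. Interferon signals replace the catalytic beta subunits with those of the immunoproteasome and raise the PA28 activators, which changes the peptides made for antigen presentation. In hepatocytes the standard proteasome turns over short-lived and misfolded proteins, while immune cells carry much of the immunoproteasome of the resting liver.

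Scaling between libraries decided much of what follows and is therefore given first. Fold changes are on the scale of log2(TPM + 1) after division by a trimmed-mean factor per library, with limma and Benjamini-Hochberg adjustment over all genes tested. The factors were 1.09 to 1.22 in YAP1 KO livers against 0.852 to 0.913 in their littermates, and 1.075 to 1.18 in YKTH livers against 0.858 to 0.947. Without these factors, that is with TPM as deposited, the median of all genes moved up by 0.28 on the log2 scale in YAP1 KO and by 0.24 in YKTH livers. The factors came from all genes detected in both a library and its reference library, those under 1 TPM included. A fold change below thus says how a gene moved relative to the bulk of those detected genes. On that scale the median of the genes tested was -0.0384 in YAP1 KO and -0.0402 in YKTH livers. TPM per mouse as deposited, which carry this shift between the groups, and ratios within a library, which need no factor, are given beside it. Groups that do not overlap as deposited are to be read with that shift. The share of all genes whose groups did not overlap as deposited is not given here.

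**Figure D1:**
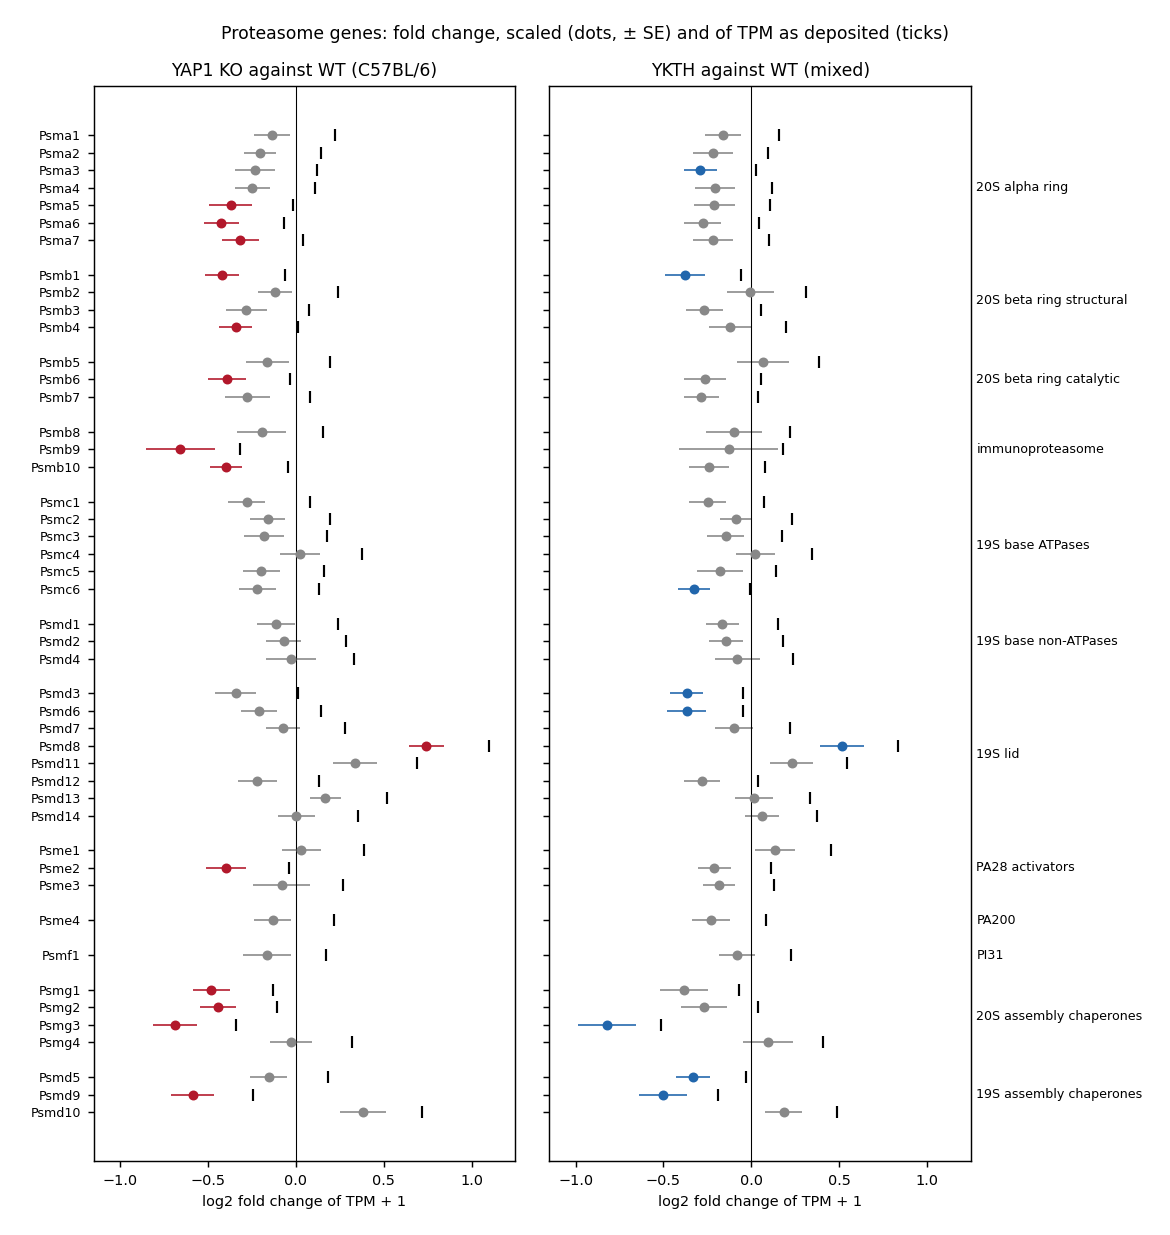
Log2 fold change of TPM + 1 (x axis) of the 46 tested proteasome genes (y axis, grouped by role) in YAP1 KO livers against WT (C57BL/6) and in YKTH livers against WT (mixed). Dots are scaled values with the standard error (3 mice against 3), coloured where the adjusted p passed the threshold of 0.05 and grey where it did not, and black ticks are the values of TPM as deposited. Psmd8 lies to the right in both panels, and without scaling every gene shifts to the right by a similar amount.

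In YAP1 KO livers 1 of the 46 genes, Psmd8, rose and 13 fell. Among all 11704 genes tested in that comparison, 18.8% rose and 17.9% fell. In YKTH livers 1 gene, again Psmd8, rose and 8 fell, where 19.2% of 11741 genes rose and 19% fell. Psmb1, Psmd9 and Psmg3 fell in both models, which is 23.1% of the members that fell in YAP1 KO and 37.5% of those that fell in YKTH livers. The share of all genes that fell in both models is not given here. With each of the 6 mice of a comparison left out in turn, Psma6, Psmb1, Psmb10, Psmd9, Psmg1, Psmg2 and Psmg3 fell in all 6 fits in YAP1 KO livers and the other 6 genes in 0 to 3 of them. In YKTH livers Psmg3 fell in all 6 fits and the other 7 genes in 0 to 4 of them. The median log2 fold change of the 46 genes was -0.20 in YAP1 KO and -0.19 in YKTH livers, against -0.04 for all genes in each comparison. With TPM as deposited the picture turned over. Then 11 genes rose and 0 fell in YAP1 KO livers, where 37.5% of all genes rose and 7.13% fell, and 9 rose and 1 fell in YKTH livers, where 34.8% rose and 7.55% fell. The proteasome genes as a body therefore lay below the median of all genes under either scaling, with medians of 0.15 and 0.12 against 0.28 and 0.24 without scaling, while the direction of most single genes depended on it.

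Psmd8 encodes the lid subunit Rpn12 and was the member with the largest rise in both models. It was at 163, 175 and 154 TPM in the YAP1 KO livers and at 75.0, 77.9 and 74.9 TPM in WT (C57BL/6). In the YKTH livers it was at 123, 143 and 147 TPM, against 76.1, 77.0 and 75.8 TPM in WT (mixed). Neither pair of groups overlapped, and the 6 WT livers lay within 74.9 to 77.9 TPM. The scaled fold change was 1.67 in YAP1 KO (log2 0.74 ± 0.10 SE, limma adjusted p = 0.00103) and 1.43 in YKTH livers (log2 0.52 ± 0.13 SE, limma adjusted p = 0.0125). As deposited, the mean TPM was 2.16 times and 1.80 times that of the littermates. The exact permutation test gave p = 0.1 in each model, the smallest that 3 mice against 3 allow. In YAP1 KO livers the call stood under all 13 alternatives, and in YKTH livers it was lost without LM250 or without LM251, with an adjusted p of up to 0.0609. The gene lies on the minus strand of chromosome 7 (29174188 to 29180701, GRCm38) with 6 blocks of exons, none shared with another gene, and no near-identical copy of its transcript was found.

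**Figure D2:**
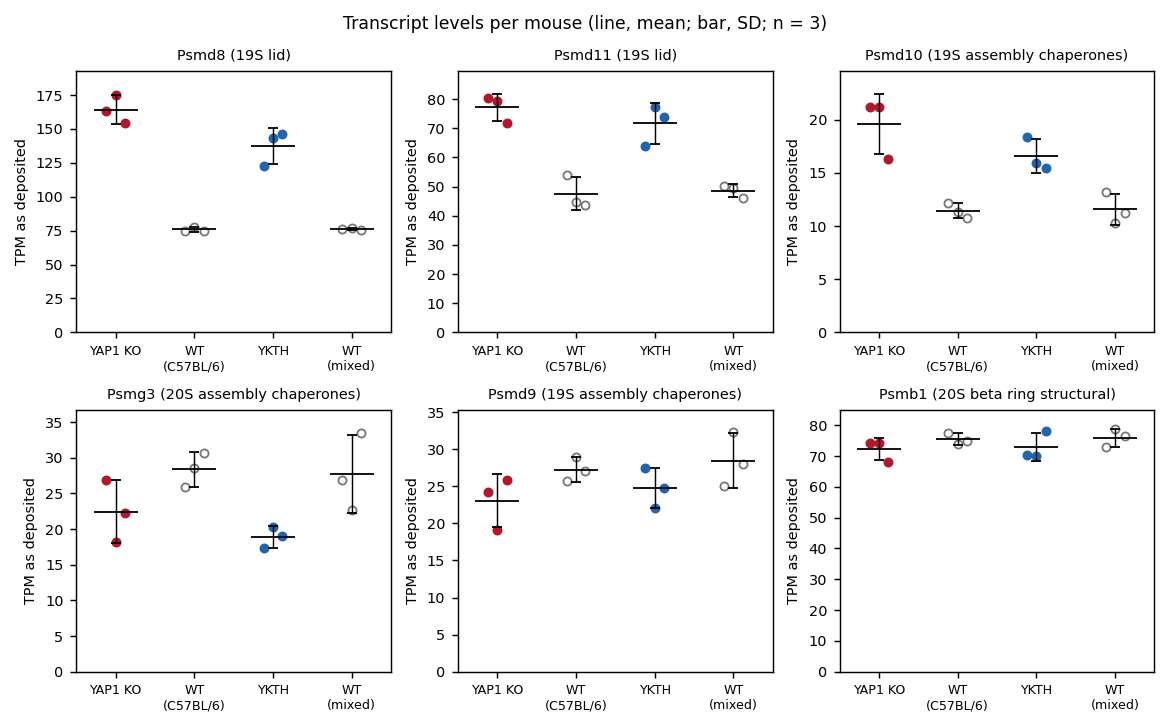
TPM as deposited (y axis, from 0) of 6 proteasome genes in each mouse, with 1 dot per mouse, filled for the models and open for the WT littermates, a line at the mean and a bar for the SD (n = 3 mice per group). Psmd8 separates both models from their littermates, with 123 to 175 TPM in the models and 74.9 to 77.9 TPM in WT, Psmd11 and Psmd10 lie higher in the models, Psmg3 and Psmd9 tend lower, and Psmb1 hardly moves.

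The 250 bases upstream of the RefSeq start of Psmd8 are shown with those of Psmg3, the member with the largest fall in both models, and of Psmd11, the lid gene second to Psmd8 in size of rise. They are written 5′ to 3′ on the strand of the gene (GRCm38.p6), with matches to the searched motifs in capitals. The Psmd8 window is chr7:29180674-29180923 (minus strand), that of Psmg3 is chr5:139826895-139827144 (minus strand) and that of Psmd11 is chr11:80428365-80428614 (plus strand).
Psmd8: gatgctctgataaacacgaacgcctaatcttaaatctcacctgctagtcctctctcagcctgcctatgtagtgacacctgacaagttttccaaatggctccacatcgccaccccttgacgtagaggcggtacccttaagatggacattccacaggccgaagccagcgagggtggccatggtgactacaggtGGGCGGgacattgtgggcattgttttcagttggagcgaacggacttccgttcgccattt
Psmg3: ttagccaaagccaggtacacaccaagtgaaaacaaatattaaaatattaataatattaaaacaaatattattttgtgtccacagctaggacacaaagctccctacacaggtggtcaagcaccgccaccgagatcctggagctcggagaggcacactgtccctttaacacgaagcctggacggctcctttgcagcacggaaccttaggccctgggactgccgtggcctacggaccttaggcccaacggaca
Psmd11: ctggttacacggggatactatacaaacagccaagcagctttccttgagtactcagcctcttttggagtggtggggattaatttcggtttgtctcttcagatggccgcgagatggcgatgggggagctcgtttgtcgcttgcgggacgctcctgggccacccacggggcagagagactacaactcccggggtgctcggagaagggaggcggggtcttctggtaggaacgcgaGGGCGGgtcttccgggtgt
The motifs searched, on both strands of the 300-base windows around the start, were the antioxidant response element core TGACNNNGC, the gamma-activated site TTCNNNGAA, the interferon-stimulated response element core GAAANNGAA, the CCAAT box and the GC box GGGCGG. A GC box was found in Psmd8 and in Psmd11, and none of the 5 in Psmg3. Of the 47 members, 39 had a window. The GC box was in 23 of the 39, or 59.0%, against 35.9% of 27025 gene windows, and the antioxidant response element core in 6, or 15.4%, against 12.5%. The interferon-stimulated element was in 6, or 15.4%, against 8.57%, the gamma-activated site in 3, or 7.69%, against 8.47%, and the CCAAT box in 13, or 33.3%, against 37.9%. The gamma-activated site was present in Psmb8, as TTCCCAGAA, and the interferon-stimulated element in Psme1, as TTCGCTTTC on the given strand. These matches are descriptions of letters, and the windows of 7 members (Psmb8, Psmb9, Psmd5, Psmd9, Psmd13, Psme1 and Psmf1) lie wholly inside the gene spans of the deposited tables.

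Of the 17 genes of the 19S particle, Psmd8 was the only one that passed the test in YAP1 KO livers, and in YKTH livers 1 rose and 3 fell. Psmd11, the lid subunit Rpn6 that clamps base and core together, was at 80.5, 79.2 and 71.8 TPM in YAP1 KO against 54.1, 44.7 and 43.8 TPM in WT (C57BL/6), and at 63.8, 77.3 and 73.9 TPM in YKTH against 50.1, 49.7 and 46.2 TPM in WT (mixed). Neither pair of groups overlapped. Its scaled log2 fold changes were 0.34 ± 0.12 SE (limma adjusted p = 0.0654) and 0.23 ± 0.12 SE (adjusted p = 0.171), so it did not pass, whereas as deposited they were 0.69 and 0.55 and did (adjusted p = 0.00165 and 0.00401). Psmd13, another lid subunit, was at 64.9 to 70.8 TPM in YAP1 KO against 42.8 to 48.5 TPM, and at 60.3 to 63.9 TPM in YKTH against 46.6 to 50.2 TPM. Psmd14, the deubiquitinating enzyme of the lid, was at 49.1 to 58.9 TPM against 41.2 to 43.7 TPM, and at 50.4 to 57.8 TPM against 39.4 to 44.4 TPM. Psmd11, Psmd13 and Psmd14 were picked after their values were seen, and exons of Psmd13 overlap those of Sirt3 on the opposite strand over 342 bases.

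At the other end of the lid, Psmd3 had a log2 fold change of -0.34 ± 0.12 SE in YAP1 KO (limma adjusted p = 0.0504) and fell by 0.37 in YKTH livers (adjusted p = 0.0158). Psmd6 fell by 0.37 in YKTH livers (adjusted p = 0.0296). As deposited, Psmd3 was at 91.3 to 100.05 TPM in YAP1 KO against 88.1 to 100.7 TPM, and at 83.2 to 96.4 TPM in YKTH against 90.8 to 99.5 TPM, so the groups overlapped in both models. Among the base ATPases, 0 of 6 passed in YAP1 KO and Psmc6 fell in YKTH livers (log2 -0.33 ± 0.09 SE, limma adjusted p = 0.0238). The 6 ATPases had log2 fold changes between -0.28 (Psmc1) and 0.02 (Psmc4) in YAP1 KO and between -0.33 (Psmc6) and 0.02 (Psmc4) in YKTH livers. Psmc4 was at 108 to 121 TPM in YAP1 KO against 82.1 to 94.0 TPM, and at 108 to 111 TPM in YKTH against 83.1 to 91.7 TPM, so that its groups did not overlap as deposited and overlapped after scaling. The base subunits Psmd1, Psmd2 and Psmd4, scaffolds and ubiquitin receptors, had log2 fold changes of -0.11 to -0.03 and of -0.16 to -0.08, and none passed.

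A ratio within a library needs no factor between libraries. The summed TPM of the 17 genes of the 19S particle was 0.768, 0.783 and 0.813 of that of the 14 genes of the 20S core (Psma8 left out) in YAP1 KO livers and 0.661, 0.687 and 0.655 in WT (C57BL/6). It was 0.752, 0.739 and 0.721 in YKTH livers and 0.697, 0.694 and 0.681 in WT (mixed). The groups did not overlap in either model, with means of 0.788 ± 0.0229 against 0.668 ± 0.0170 and 0.737 ± 0.0153 against 0.691 ± 0.00839 (SD, n = 3). Without Psmd8 the ratio was 0.687 to 0.734 against 0.617 to 0.646 in YAP1 KO, and 0.648 to 0.690 against 0.642 to 0.655 in YKTH livers, where the groups then overlapped. The 20S sum itself was 1949.5 to 2091 TPM in YAP1 KO against 1893 to 1953 TPM, and 1996.5 to 2102 TPM in YKTH against 1802 to 1949 TPM. The 19S sum was 1537 to 1637 TPM against 1252 to 1301 TPM, and 1452 to 1554 TPM against 1251 to 1328 TPM.

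Each gene was also set against the median of the 46 genes in its own library, a measure added after the values were seen. On it, 10 genes were higher in every YAP1 KO liver than in every WT (C57BL/6) liver and 6 were lower, where 37.8% and 12.6% of 11530 genes were. In YKTH livers 9 were higher and 3 lower, where 35.0% and 14.7% were. Psmd8 was 1.99, 2.14 and 1.97 times the median gene in YAP1 KO livers and 0.983, 1.072 and 1.01 times in WT (C57BL/6), and 1.41, 1.87 and 1.91 times in YKTH livers against 1.04, 1.05 and 1.01 times in WT (mixed). In the 6 WT livers Psmd8 thus stood close to the median gene, and in all 6 mutant livers above it. Psmg3 was 0.329, 0.221 and 0.283 times the median gene in YAP1 KO against 0.339, 0.393 and 0.413 times, and 0.200, 0.264 and 0.248 times in YKTH against 0.366, 0.309 and 0.447 times.

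In the 20S core, all 14 genes tested had negative scaled log2 fold changes in YAP1 KO livers (median -0.28) and 13 of 14 in YKTH livers (median -0.22); as deposited, 10 and 13 of the 14 were positive. After scaling, 6 fell in YAP1 KO livers, namely Psma5, Psma6, Psma7, Psmb1, Psmb4 and Psmb6, and 2 fell in YKTH livers, namely Psma3 and Psmb1. Psma6, an alpha ring subunit, was at 126, 134 and 127 TPM in YAP1 KO and at 129, 139 and 137 TPM in WT (C57BL/6), which gave log2 -0.42 ± 0.10 SE after scaling (limma adjusted p = 0.0114) and -0.07 as deposited (adjusted p = 0.535). Psma3 was at 72.2 to 74.7 TPM in YKTH and at 70.1 to 74.4 TPM in WT (mixed), with log2 -0.29 ± 0.09 SE after scaling (limma adjusted p = 0.0403). Psma1 was the alpha subunit nearest to 0 in both models, at -0.14 and -0.16. Among the structural beta subunits, Psmb1 fell by 0.42 in YAP1 KO (adjusted p = 0.0115) and by 0.38 in YKTH livers (adjusted p = 0.0310), and Psmb2 did not pass, with log2 -0.12 and -0.01. As deposited, Psmb1 was at 68.1 to 74.4 TPM in YAP1 KO against 74.0 to 77.6 TPM and at 70.1 to 78.0 TPM in YKTH against 72.9 to 78.7 TPM, and both pairs of groups overlapped. Without scaling none of these genes fell.

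Psmb5, Psmb6 and Psmb7 carry the chymotrypsin-like, caspase-like and trypsin-like sites of the standard proteasome. Psmb5 was at 203, 233 and 204 TPM in YAP1 KO livers, at 166, 190.04 and 204 TPM in WT (C57BL/6), at 188, 252 and 216 TPM in YKTH livers and at 163, 158 and 178 TPM in WT (mixed). Its scaled log2 fold changes were -0.16 ± 0.12 SE and 0.06 ± 0.15 SE, and neither passed (limma adjusted p = 0.336 and 0.764). Psmb6 was the gene with the highest mean of the 46 in the WT livers, at 226 ± 11.7 TPM (SD, n = 6). It fell by 0.39 in YAP1 KO livers after scaling (adjusted p = 0.0220) and had log2 -0.26 in YKTH livers (adjusted p = 0.117), while its mean TPM as deposited was 0.976 and 1.04 times that of the littermates. Psmb7 had log2 -0.28 and -0.29 and did not pass in either model (adjusted p = 0.129 and 0.0516).

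The genes that assemble the proteasome held several of the falls. Psmg1 to Psmg4 are chaperones of the alpha ring, and 3 of the 4 fell in YAP1 KO livers and 1 in YKTH livers. Psmg3 was at 26.9, 18.1 and 22.2 TPM in YAP1 KO and at 25.8, 28.6 and 30.6 TPM in WT (C57BL/6), and at 17.3, 20.3 and 19.04 TPM in YKTH against 26.9, 22.6 and 33.5 TPM in WT (mixed). The groups overlapped as deposited in the first model and not in the second. After scaling Psmg3 fell to 0.622-fold (log2 -0.69 ± 0.13 SE, limma adjusted p = 0.00409) and 0.566-fold (log2 -0.82 ± 0.17 SE, limma adjusted p = 0.00570). As deposited the fall held in YKTH livers (log2 -0.51, adjusted p = 0.0248) and missed the threshold in YAP1 KO livers (log2 -0.34, adjusted p = 0.1). It lies on the minus strand of chromosome 5 (139823592 to 139826885), and 280 of its exonic bases are shared on the same strand with Gm26938, a gene at 0.913 TPM at most. Psmg1 and Psmg2 fell by 0.48 and 0.44 in YAP1 KO livers (adjusted p = 0.00815 and 0.0104), and Psmg4 did not pass in either model after scaling (log2 -0.03 and 0.09).

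Among the chaperones of the 19S base, Psmd9 fell in both models, by 0.59 (limma adjusted p = 0.00727) and by 0.50 (adjusted p = 0.0212). It was at 24.2, 19.1 and 25.9 TPM in YAP1 KO against 25.7, 29.0 and 27.1 TPM, and at 27.5, 22.02 and 24.8 TPM in YKTH against 25.1, 32.3 and 28.01 TPM, so the groups overlapped as deposited. Exons of the lincRNA Gm26745 on the opposite strand cover 25.5% of its exonic bases. Psmd10, also called gankyrin, went the other way in value. It was at 21.2, 21.2 and 16.3 TPM in YAP1 KO against 12.2, 11.3 and 10.8 TPM, and at 18.4, 15.9 and 15.4 TPM in YKTH against 13.2, 10.3 and 11.2 TPM, with no overlap in either model. It missed the threshold after scaling (log2 0.38 ± 0.13 SE, limma adjusted p = 0.0518, and 0.18 ± 0.11 SE, adjusted p = 0.205) and passed as deposited (log2 0.72 and 0.49, adjusted p = 0.00344 and 0.0183). Psmd5, the remaining base chaperone, fell in YKTH livers (log2 -0.33 ± 0.10 SE, limma adjusted p = 0.0287) and was at 14.1 to 14.5 TPM there against 14.0 to 15.6 TPM as deposited.

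**Figure D3:**
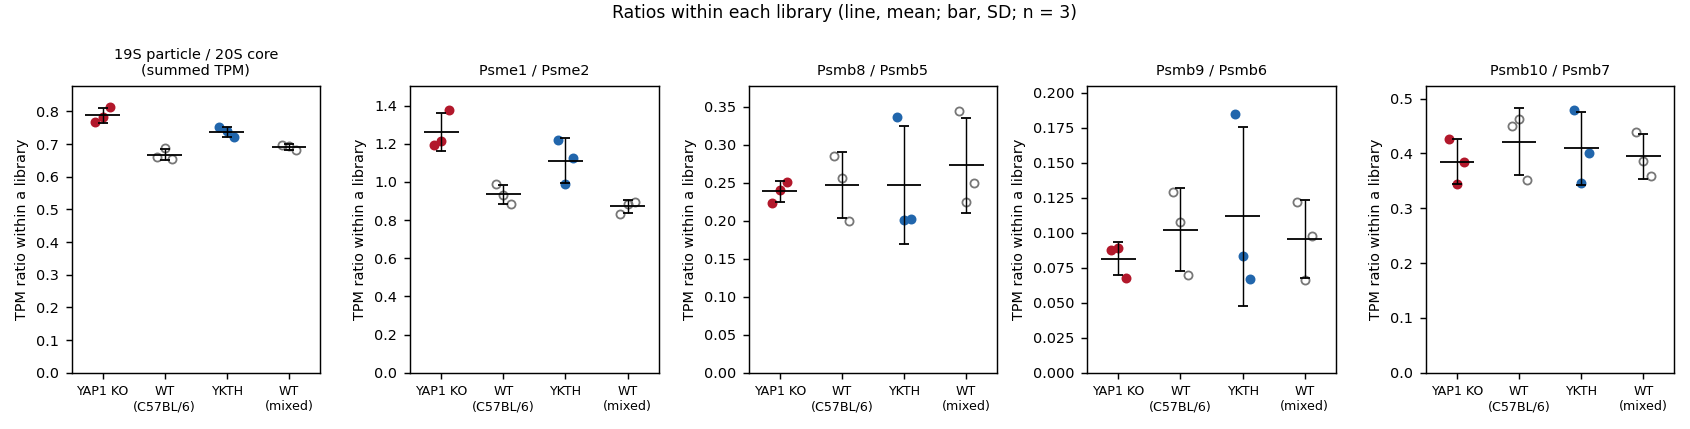
TPM ratios within each library (y axes, from 0) for the summed 19S over the summed 20S genes, Psme1 over Psme2, and each immunoproteasome subunit over the standard subunit it replaces, with 1 dot per mouse, filled for the models and open for WT, a line at the mean and a bar for the SD (n = 3). The first 2 ratios separate each model from its littermates, with 0.721 to 0.813 against 0.655 to 0.697 for 19S over 20S, and the 3 immunoproteasome ratios overlap.

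The immunoproteasome subunits Psmb8, Psmb9 and Psmb10 replace Psmb5, Psmb6 and Psmb7. No subunit rose in either model. Psmb9 was at 19.3, 19.9 and 16.2 TPM in YAP1 KO against 29.4, 24.3 and 17.3 TPM in WT (C57BL/6), and at 38.1, 19.9 and 15.9 TPM in YKTH against 26.6, 14.9 and 20.7 TPM in WT (mixed). The groups overlapped in both models. After scaling it fell by 0.66 in YAP1 KO livers (SE 0.20, limma adjusted p = 0.0306), a call that stood without LM193 or LM189 and was lost without any of the other 4 mice (adjusted p = 0.0653 to 0.0912), and it had log2 -0.13 ± 0.28 SE in YKTH livers (adjusted p = 0.748). Psmb10 was at 72.4 to 82.2 TPM in YAP1 KO against 74.5 to 82.99 TPM, and fell by 0.40 after scaling (limma adjusted p = 0.0118), with log2 -0.04 as deposited (adjusted p = 0.738). In YKTH livers it was at 71.6 to 96.1 TPM against 71.2 to 86.6 TPM (log2 -0.24, adjusted p = 0.132). Psmb8 was at 45.5 to 56.1 TPM against 40.6 to 48.7 TPM, and at 43.6 to 63.5 TPM against 35.5 to 56.3 TPM, and did not pass in either model (log2 -0.19 and -0.10, adjusted p = 0.314 and 0.663).

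The exchange of subunits was read from the ratio of each immunoproteasome subunit to the one it replaces in the same library. Psmb8 over Psmb5 was 0.239 ± 0.0137 in YAP1 KO, 0.247 ± 0.0439 in WT (C57BL/6), 0.247 ± 0.0780 in YKTH and 0.273 ± 0.0631 in WT (mixed) livers (SD, n = 3). Psmb9 over Psmb6 was 0.0815 ± 0.0119, 0.102 ± 0.0299, 0.112 ± 0.0638 and 0.0953 ± 0.0278, and Psmb10 over Psmb7 was 0.385 ± 0.0409, 0.421 ± 0.0612, 0.409 ± 0.0664 and 0.394 ± 0.0404, in the same order. All 9 pairs of groups overlapped, and the two-sided exact permutation tests gave p = 0.4 to 0.8 (0.8 after Benjamini-Hochberg adjustment over the 9). The log2 differences ranged from -0.29 ± 0.29 SE (Psmb9 over Psmb6, YAP1 KO) to 0.13 ± 0.24 SE (Psmb8 over Psmb5, between the WT groups), so with 3 mice a group these data did not resolve a shift of that size. Together the 3 immunoproteasome subunits made up 16.7% to 24.9% of the summed TPM of the 6 catalytic subunits.

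**Figure D4:**
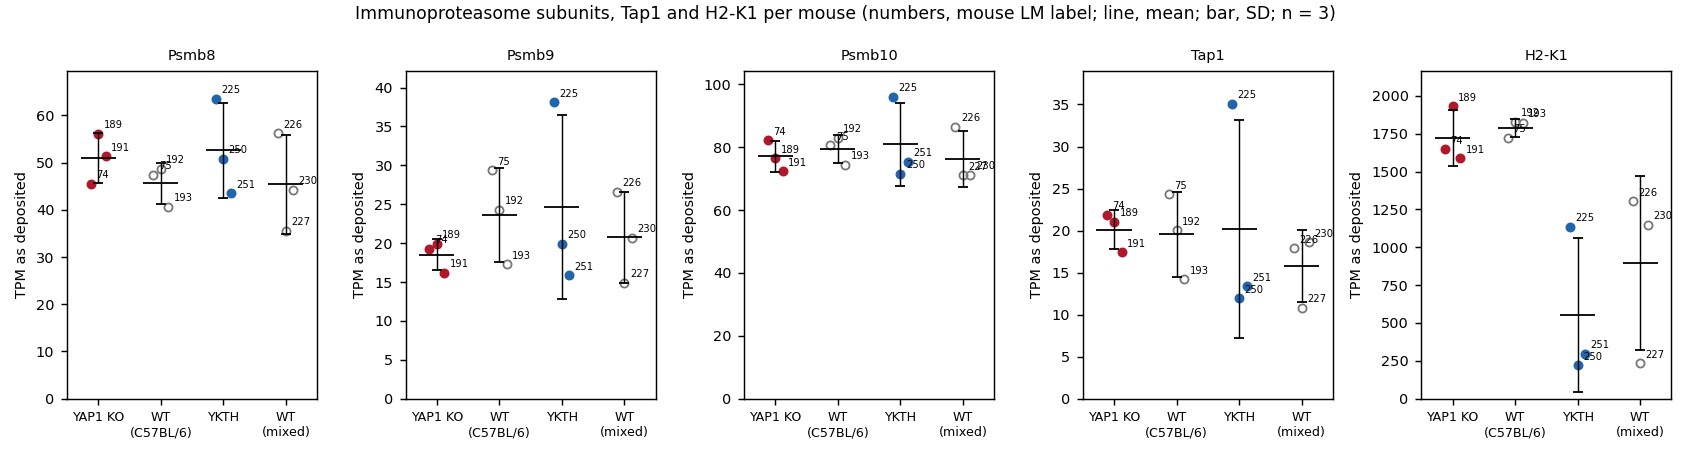
TPM as deposited (y axes, from 0) of Psmb8, Psmb9, Psmb10, Tap1 and H2-K1 in each mouse, with 1 numbered dot per mouse (its LM label), filled for the models and open for WT, a line at the mean and a bar for the SD (n = 3). YKTH mouse LM225 is the highest of the 12 for Psmb8, Psmb9, Psmb10 and Tap1, and H2-K1 is at 221 to 296 TPM in LM250, LM251 and LM227 and above 1100 TPM in the other 9.

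Single mice set much of this spread. As deposited, YKTH mouse LM225 had the highest value of the 12 livers for Psmb8 (63.5 TPM), Psmb9 (38.1 TPM), Psmb10 (96.1 TPM), Psme1 (217 TPM) and Psme2 (177 TPM). The same liver was highest for 8 of the 14 inducers and interferon gamma response genes, among them Gbp2 (13.2 TPM) and Nlrc5 (11.7 TPM), and not for the other 6, which were Ifngr1, Ifngr2, Jak2, Gbp3, Cxcl9 and Cxcl10. It was also highest for the peptide transporter Tap1 (35.1 TPM). These ranks are of TPM as deposited, and LM225 had the largest scaling factor of its comparison (1.18). After division by the factors, its Psmb8 was 53.7 against up to 59.4 in WT (mixed). Its Psmb10 was then 81.3 against up to 91.4, and its Psmb9 was 32.3 against up to 28.1. The share of all genes for which LM225 was highest is not given here. When each of the 6 mice of that comparison was left out in turn, the log2 fold change of Psmb9 in YKTH livers ranged from -0.45 to 0.09 and that of Psmb8 from -0.25 to 0.03. Psmb8 and Psmb9 lie in the major histocompatibility region of chromosome 17 (34197721 to 34201454 and 34181987 to 34187764), where Psmb9 shares 212 exonic bases with Tap1 on the opposite strand. H2-K1, a class I gene of that region (33996017 to 34000347), was at 221, 296 and 236 TPM in YKTH LM250, YKTH LM251 and WT (mixed) LM227, at 1137, 1304 and 1149 TPM in the other 3 mice of the mixed background (LM225, LM226 and LM230), and at 1588 to 1931 TPM in the 6 C57BL/6 mice. The first 3 mice also had the lower values of Psmb9 among the mixed-background mice (19.9, 15.9 and 14.9 TPM, against 38.1, 26.6 and 20.7 TPM) and of Tap1 (11.9, 13.4 and 10.8 TPM, against 35.1, 17.9 and 18.6 TPM). Psmb8, Tap2 and H2-D1 of the same region did not separate these mice. In the same order, Psmb8 was at 50.8, 43.6 and 35.5 TPM against 63.5, 56.3 and 44.3 TPM. Tap2 was at 47.0, 40.0 and 32.5 TPM against 47.3, 32.2 and 29.6 TPM. H2-D1 was at 1355, 1351 and 1016 TPM against 1369, 1061 and 894.6 TPM. The part of the alleles of this region in the Psmb9 values was not tested.

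Psme1 and Psme2 form the PA28 ring that activates the core, and their ratio within a library differed between each model and its littermates. Psme1 was at 188, 205 and 181 TPM in YAP1 KO against 151, 147 and 138 TPM, and at 217, 165 and 172 TPM in YKTH against 134, 128 and 139 TPM, with no overlap as deposited. Psme2 was at 157, 169 and 131 TPM in YAP1 KO against 153, 157 and 156 TPM, and at 177, 168 and 152 TPM in YKTH against 160.1, 145 and 155 TPM. Psme1 over Psme2 was thus 1.196, 1.21 and 1.38 in YAP1 KO against 0.987, 0.934 and 0.885 in WT (C57BL/6), and 1.22, 0.987 and 1.13 in YKTH against 0.834, 0.886 and 0.897 in WT (mixed), with no overlap in either model. This ratio was picked after the values were seen. On the scaled values Psme1 did not pass (log2 0.03 and 0.13, limma adjusted p = 0.842 and 0.391), and Psme2 fell by 0.40 in YAP1 KO livers (adjusted p = 0.0290) and had log2 -0.21 in YKTH livers (adjusted p = 0.114). As deposited Psme1 rose in both models (log2 0.39 and 0.45, adjusted p = 0.00856 and 0.0163). Psme2 has a near-identical protein-coding copy, Psme2b, with 99.4% identity over 82.5% of the transcript, which was at 2.57 TPM at most. The genes lie close together on chromosome 14, Psme1 at 55578123 to 55581529 and Psme2 at 55587441 to 55591113.

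Psme3, the nuclear PA28 gamma, was at 40.4 to 47.8 TPM in YAP1 KO against 27.1 to 41.8 TPM, and at 39.5 to 40.9 TPM in YKTH against 35.5 to 38.1 TPM (log2 -0.08 and -0.18 after scaling, limma adjusted p = 0.733 and 0.143). Psme4, the PA200 activator, had log2 -0.13 and -0.23 (adjusted p = 0.364 and 0.130), and Psmf1, the inhibitor PI31, had log2 -0.17 and -0.08 (adjusted p = 0.375 and 0.572). None of these 3 passed in either model under any scaling tried.

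The genes of the pathway that are no members were read from lists. Of 19 proteasome partners found, 1 rose and 5 fell in each model after scaling. Ubqln2, a shuttle that brings ubiquitinated proteins to the 19S particle, rose by 0.55 and 0.32 (limma adjusted p = 0.0148 and 0.0443). Pomp, the maturation factor of the 20S core, fell by 0.41 and 0.30 (adjusted p = 0.0208 and 0.0488). Ddi2, the protease that activates the proteasome gene regulator Nrf1, fell by 0.63 and 0.48 (adjusted p = 0.00444 and 0.0354), and Nfe2l1, which encodes Nrf1, fell by 0.34 in YAP1 KO livers (adjusted p = 0.0258) and had log2 -0.41 in YKTH livers (adjusted p = 0.0602). As deposited, Nfe2l1 was at 51.7 to 57.8 TPM against 50.2 to 56.3 TPM and at 46.6 to 58.4 TPM against 46.6 to 68.9 TPM, and of the 19 partners 8 and 2 rose and 0 fell. Of 11 antigen processing partners, 1 rose and 2 fell in YAP1 KO and 0 rose and 1 fell in YKTH livers, and as deposited 5 rose in each. Of 13 inducers and interferon gamma response genes tested, 4 rose and 1 fell in YAP1 KO and 5 rose and 1 fell in YKTH livers. Ifngr1, a chain of the interferon gamma receptor, was at 36.3 to 53.0 TPM in YAP1 KO against 14.4 to 16.4 TPM (log2 1.06 ± 0.12 SE, limma adjusted p = 0.000447) and at 43.3 to 53.8 TPM in YKTH against 15.1 to 20.6 TPM (log2 1.06 ± 0.14 SE, adjusted p = 0.000876). Ifng itself was at 0.218 TPM or below in all 12 livers.

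Some markers of other cells moved with the groups and others did not. Macrophage and Kupffer cell markers summed to 338 to 527 TPM in YAP1 KO against 150.2 to 181 TPM, and to 469 to 575 TPM in YKTH against 125 to 248 TPM, and 6 of 7 rose in each model. Ptprc, the pan-leukocyte marker, was at 7.43 to 14.0 TPM against 3.72 to 4.64 TPM and at 9.12 to 11.5 TPM against 3.60 to 5.84 TPM. Of the monocyte and neutrophil markers 5 of 5 tested rose in YAP1 KO and 3 of 5 in YKTH livers, with sums of 48.8 to 56.3 TPM against 9.32 to 14.6 TPM and of 12.7 to 54.9 TPM against 5.40 to 7.76 TPM. The 6 T cell markers summed to 2.45 to 8.12 TPM over the 12 livers, with Trac listed at 0 in all, and the 3 NK cell markers to 1.08 to 4.84 TPM. Cd3g rose in YKTH livers (log2 0.52, limma adjusted p = 0.0322) and did not pass in YAP1 KO livers (adjusted p = 0.888). The 4 dendritic cell markers summed to 0.812 to 6.12 TPM and the 4 B and plasma cell markers to 4.15 to 20.4 TPM. Stellate cell and fibroblast markers summed to 315 to 410 TPM in YAP1 KO against 127 to 149.6 TPM and to 276 to 350 TPM in YKTH against 111 to 136 TPM. Dcn, Col1a1 and Col3a1 rose in both models, Reln did not pass in either, and Lrat, a marker of quiescent stellate cells, fell in YAP1 KO livers (log2 -0.84, limma adjusted p = 0.00991). Biliary markers summed to 323 to 742 TPM against 28.8 to 54.7 TPM and to 98.7 to 218 TPM against 43.0 to 59.9 TPM, of which Spp1 alone was 303 to 725 TPM in YAP1 KO and 84.4 to 208 TPM in YKTH livers. Spp1 and Sox9 rose in both models, Krt19 did not pass in either, Krt7 was under 1 TPM in all 12 livers, and Epcam fell in YKTH livers (log2 -1.48, limma adjusted p = 0.00118). The paper reports from CK19 staining that intrahepatic bile ducts were absent in both models, so the biliary sums are not a measure of ducts. Endothelial markers summed to 58.3 to 87.5 TPM against 68.6 to 74.2 TPM and to 68.5 to 97.0 TPM against 89.0 to 91.2 TPM. Kdr fell in both models (log2 -0.95 and -0.93, limma adjusted p = 0.0021 and 0.00241). Clec4g fell in YAP1 KO livers (adjusted p = 0.00823) and Lyve1 in YKTH livers (adjusted p = 0.0285), while Pecam1 and Stab2 did not pass in either. The 6 hepatocyte markers summed to 75490 to 84570 TPM in YAP1 KO against 93130 to 106100 TPM, and to 71710 to 89290 TPM in YKTH against 84380 to 107700 TPM, most of it Alb. After scaling Alb, Ttr and Serpina1a fell in YAP1 KO and Ttr and Serpina1a in YKTH livers, while Apoa1, Hnf4a and Cps1 did not pass in either model (log2 -0.12 to 0.21). Higher macrophage and monocyte marker sums thus accompanied immunoproteasome values that overlapped between groups. The part of these markers in the proteasome values was not tested.

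Between the WT groups 0 of the 46 genes passed (0.216% of 11126 genes did), with log2 fold changes between -0.26 (Psmb4) and 0.11 (Psme4), and 1 gene, Psmb4, had an unadjusted limma p under 0.05. Whether the changes differed between YAP1 KO and YKTH livers was tested as an interaction in a joint fit of all 12 livers, where 0.0576% of 12159 genes passed. Yap1 itself was among these genes (log2 -1.59 ± 0.24 SE, limma adjusted p = 0.0371), so its fall was larger in YAP1 KO than in YKTH livers. None of the 47 members passed the interaction test or had an unadjusted p under 0.05 in it. The 2 members with the smallest unadjusted p were Psmb4 (log2 -0.23 ± 0.15 SE) and Psmb9 (log2 -0.54 ± 0.38 SE), each with a limma adjusted p of 0.998. For Psmd8 the change in YAP1 KO livers was larger than that in YKTH livers by 0.22 ± 0.16 SE on the log2 scale (limma adjusted p = 0.998), so the models were not resolved from each other at this number of mice.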

How the data were processed

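Whole-liver RNA of 12 mice in 4 groups of 3 was sequenced as paired ends, and the authors deposited TPM values per gene, made with CLC Genomics Workbench on GRCm38. The deposited tables also hold the authors' own edgeR comparisons (group means, fold changes, p-values, FDR and Bonferroni values), which were not used. Each library sums to 1000000 TPM and no counts were used here; the study's methods state a single read number for every sample, so the reads behind a library or a value are not known from these tables. TPM were divided by trimmed-mean factors (trims of 30% on ratios and 5% on levels), a pseudocount of 1 TPM was added, and the log2 values were analysed, for genes reaching 1 TPM in 3 or more of the libraries fitted, by limma 3.58.1 (R 4.3.3; variance trend, two-sided, Benjamini-Hochberg adjusted p under 0.05). The fit was run on simulated data in which a small set of genes changed, as many up as down. No shift between the groups was simulated, so that run does not bear on the choice of scaling. The limma p-values set each difference between groups against the spread between mice within the groups. For that, the variance of each gene was drawn toward a trend over all genes tested. Ratios within libraries were compared with exact permutation tests (scipy 1.17.1), and near-identical transcripts were sought with blastn 2.17.0. Named genes are the catalytic, PA28, PA200 and PI31 genes and, in every other class, the members with the highest and lowest fold change in each model, with others said to be picked later. Alternatives were no scaling, quantile normalization, other pseudocounts and filters, robust shrinkage, 1 joint fit and leaving out each mouse. Members and lists were chosen with earlier results of these data known.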

Additional observations from a re-analysis of the deposited data

How the results depend on the processing

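Scaling was the choice on which most values turned, and the cause of the shift between the scalings was not tested. With TPM as deposited, 11 members rose and 0 fell in YAP1 KO livers and 9 rose and 1 fell in YKTH livers. With quantile normalization these counts were 4 and 6, and 3 and 3. The shares of all genes are given above for the main fit and for TPM as deposited only. Counts under the other alternatives, also those with a mouse left out, thus have no share beside them. In YAP1 KO livers 2 members rose in the fit of all 12 libraries, with a minimum of 5 TPM and with robust shrinkage. Psmd8 rose in YAP1 KO livers under all 13 alternatives. Summed TPM as deposited differed on the log2 scale by 0.074 (20S core), 0.31 (19S particle), -0.017 (immunoproteasome) and 0.19 (PA28) in YAP1 KO livers, and by 0.13, 0.22, 0.14 and 0.27 in YKTH livers. An alternative chosen after seeing the data left out each mouse for the immunoproteasome sum as deposited in YKTH livers, which gave -0.027 without LM225, 0.038 without LM227, 0.12 without LM230, 0.21 without LM250, 0.25 without LM251 and 0.28 without LM226.

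Without scaling the sign turned for 28 of the 46 members in YAP1 KO and for 29 in YKTH livers. Among the genes named by rule, it turned in YAP1 KO livers for Psmb5 (log2 0.20), Psmb7 (0.082), Psmb8 (0.16), Psme3 (0.27), Psme4 (0.22), Psmf1 (0.17), Psma1 (0.22), Psmb2 (0.24), Psmc1 (0.079), Psmd4 (0.33), Psmd1 (0.24), Psmd3 (0.015) and Psmg4 (0.32). It turned in YKTH livers for Psmb6 (0.056), Psmb7 (0.035), Psmb8 (0.22), Psmb9 (0.18), Psmb10 (0.079), Psme2 (0.11), Psme3 (0.13), Psme4 (0.081), Psmf1 (0.22), Psma1 (0.16), Psma3 (0.027), Psmb2 (0.31), Psmd4 (0.24) and Psmd1 (0.15). Among the same named genes, it turned with quantile normalization in YAP1 KO livers for Psmb5 (0.15), Psmb7 (0.038), Psme3 (0.012), Psma1 (0.097), Psmb2 (0.098), Psmd4 (0.15), Psmd1 (0.047) and Psmg4 (0.026), and in YKTH livers for Psmb6 (0.11), Psmb7 (0.046), Psmb8 (0.051), Psme2 (0.087), Psma1 (0.10), Psmb2 (0.25), Psmd4 (0.094) and Psmd1 (0.020).

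Leaving out each mouse in turn gave 1 to 3 members that rose and 8 to 10 that fell in YAP1 KO livers, with 3 rises without LM75, 2 without LM191, and 8 falls without LM75, LM192, LM193 or LM191. In YKTH livers it gave 0 to 2 rises (0 without LM250 or LM251, 2 without LM225) and 2 to 7 falls (2 without LM227, LM230 or LM250, 3 without LM251, 5 without LM225). The log2 difference of Psmb8 over Psmb5 ranged from -0.18 to 0.076 in YAP1 KO, from -0.41 to 0.015 in YKTH and from -0.045 to 0.26 between the WT groups, that of Psmb9 over Psmb6 from -0.31 to 0.42 in YKTH and from -0.35 to 0.14 between the WT groups, and that of Psmb10 over Psmb7 from -0.076 to 0.16 in YKTH livers. The sign turned for 7 members in YAP1 KO and for 8 in YKTH livers. Those named by rule were, in YAP1 KO, Psme1 (-0.051 to 0.10), Psme3 (-0.24 to 0.015), Psmc4 (-0.034 to 0.13), Psmd4 (-0.15 to 0.13) and Psmg4 (-0.098 to 0.065), and, in YKTH livers, Psmb5 (-0.059 to 0.20), Psmb8 (-0.25 to 0.025), Psmb9 (-0.45 to 0.095), Psmb2 (-0.10 to 0.12), Psmc4 (-0.046 to 0.095), Psmd4 (-0.17 to 0.029) and Psmg4 (-0.049 to 0.18), and the others were Psmd2 and Psmd14 in YAP1 KO and Psmd13 in YKTH livers. The reads behind each value are not given in the TPM tables, and 3 mice a group limit the precision. The mouse numbers are shared by no 2 groups and the sample titles name no litter, so mice were not paired or grouped by litter.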
